A study of Mus musculus with 6 samples.

Results

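The genes described here are the interleukins and their receptor chains, together with the ligands and receptors that signal through gp130 and the colony-stimulating factor receptors. They were chosen by name: every gene whose mouse symbol begins with Il and a digit, plus Lif, Lifr, Osm, Osmr, Cntf, Cntfr, Csf1, Csf1r, Csf2ra, Csf2rb and Csf3r. The rule found 94 genes among 38293 in the table of read counts. RNA had been measured by bulk RNA-seq in 6 libraries of cells sorted from mouse spinal cord, 3 labelled Control and 3 labelled EAE, for experimental autoimmune encephalomyelitis, an induced disease in which immune cells attack myelin. All mice, Control and EAE alike, were female and had the genotype NG2-CreERTM:Rosa-tdTomato/+:Cx3cr1GFP/+. In this genotype a drug-inducible Cre, driven by regulatory DNA of the NG2 gene (Cspg4), switches on the red protein tdTomato in oligodendrocyte precursors, their progeny and the pericytes and smooth muscle of vessel walls, while 1 allele of Cx3cr1 carries green fluorescent protein. Live tdTomato-positive cells were sorted, and the transcription inhibitor actinomycin D was present during dissociation. The labels give no age, no day of disease and no statement of whether 1 library is 1 animal, and p-values therefore refer to spread among libraries that may in part be technical.

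Cytokines are secreted proteins that act through receptor chains on the same or neighbouring cells. Interleukin 6, leukemia inhibitory factor, oncostatin M, ciliary neurotrophic factor and interleukin 11 each bind their own receptor chain and share gp130, the product of Il6st, as signal transducer, which activates Janus kinases and the transcription factor Stat3. Members of the interleukin 1 family, such as interleukin 33, signal instead through the accessory chain Il1rap and the NF-kappaB pathway. Csf1 and Il34 are the alternative ligands of Csf1r, the receptor on which microglia depend for survival, and gp130 ligands are known as survival and differentiation factors for oligodendrocytes.

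Of the 94 genes, 76 had a read in at least 1 library and 18 had none, among them Il12b, Il3, Il9, Il17f and Il22. Only 38 had enough reads for the test of EAE against Control. The other 38 genes with reads were not tested, and 16 of those had fewer than 20 reads over all 6 libraries. Single genes dominated the group: Il33 alone took 46.7% of the 317664 reads of all 94 genes, and the top 5 took 82.0%. Total reads per library ran from 22141522 to 28734798, so that the floor of 3 reads allowed by a count of 0 lay between 0.0995 and 0.139 CPM (read counts scaled to library size). Such floors cover counting error only.

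The libraries did not hold a single cell type. Cspg4 itself was at 347 to 374 CPM in Control and 160 to 289 CPM in EAE. Genes of oligodendrocyte precursors summed to 3026 to 4566 CPM in Control and 5255 to 6306 CPM in EAE, and those of mature oligodendrocytes to between 24886 and 37862 CPM over all 6 libraries. Genes of newly formed oligodendrocytes were higher in EAE in 5 of 6 cases. Genes of pericytes and smooth muscle summed to 3128 to 5284 CPM in Control and 496 to 816 CPM in EAE, and genes of endothelium to 1870 to 2720 CPM and 475 to 557 CPM; all 10 of 10 in each of these lists were called lower. EAE replicate 3 stood apart, at 100.2 on the first principal component against 38.3 and 44.1 for the other EAE libraries, and Control replicate 3 stood apart from the other Control libraries on the second. In bulk libraries, fewer cells of a type and less RNA per cell cannot be told apart.

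The 7 most abundant genes were 3 ligands, Il33, Csf1 and Il18, and 4 receptor chains. Per kilobase of the deposited gene length, the scale on which genes can be compared, Il33, an alarmin that is released from injured cells and is made by oligodendrocytes, was at 345 ± 24.0 CPM per kb in Control and 320 ± 39.6 in EAE (SD, n = 3 each, as for every mean below). Il6st, which encodes gp130, followed at 45.5 and 39.0 CPM per kb, Cntfr, the ciliary neurotrophic factor receptor chain, at 30.9 and 35.1, Csf1 at 13.0 and 36.1, Il1rap at 15.5 and 21.0, Il18 at 16.0 and 16.1, and Lifr, the leukemia inhibitory factor receptor, at 16.3 and 14.4. Averaged over the 6 libraries, the gap from Il33 to Il6st exceeded the spread between libraries, whereas Il1rap, Il18 and Lifr overlapped one another. The other 16 of the 23 tested genes with a mean of at least 5 CPM averaged between 1.00 and 7.91 CPM per kb.

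**Figure D1:**
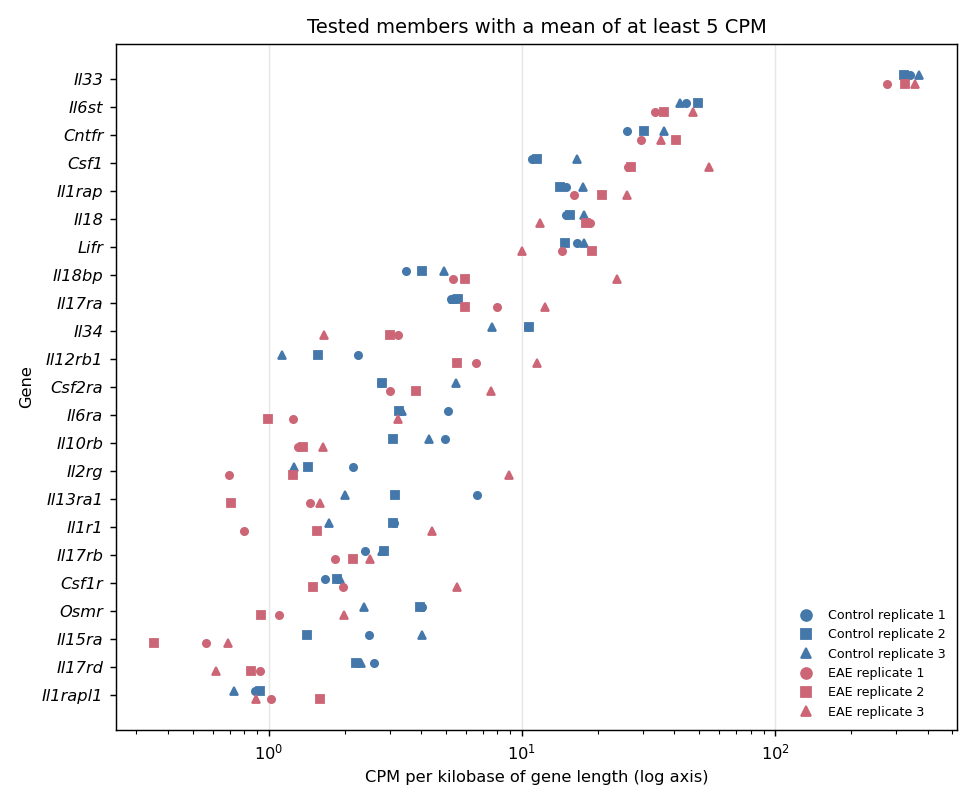
Level per library of the 23 tested genes with a mean of at least 5 CPM, in CPM per kilobase of gene length on a log axis, ordered by their mean over 6 libraries. Points are single libraries of Control or EAE. Il33 lies apart at the top, at 345 CPM per kb in Control and 320 in EAE.

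Of the 38 genes tested, 2 were called higher in EAE, Csf1 and Il12rb1, and 5 lower, Il34, Osmr, Il10rb, Il15ra and Il17rd. A gene was called when its p-value from the quasi-likelihood F test of edgeR, adjusted over all 16966 genes tested by the Benjamini-Hochberg method, was under 0.05. The 7 calls are 18.4% of the 38, where 7.14% of all tested genes were called. By direction, 5.26% of them were higher against 2.82% of all genes, and 13.2% lower against 4.33% of all genes. Their median log2 fold change was -0.14, and that of all tested genes was 0.004. Separation of the groups was also counted without a test. Every EAE library lay above every Control library for 5 of the 38 (13.2%, against 13.3% of all genes), and every EAE library lay below for 9 (23.7%, against 13.4% of all genes). No test was made of whether these shares differ from those of all genes.

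**Figure D2:**
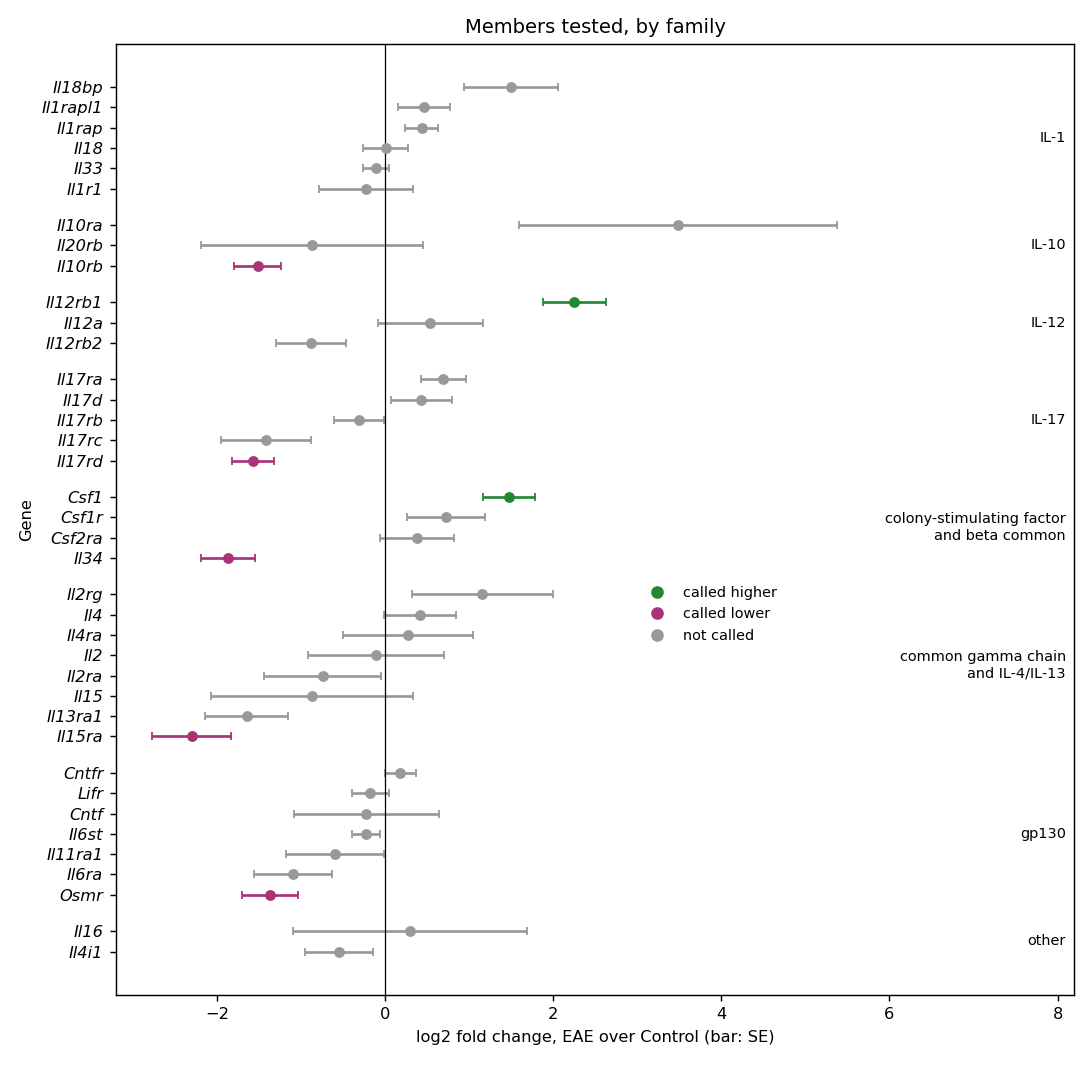
Log2 fold change of EAE over Control for the 38 tested genes, grouped by family. Points are edgeR estimates and bars their SE, with 3 libraries per group. The 2 genes called higher are Csf1 and Il12rb1, and 1 gene was called lower in each of 5 families.

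The ligands of Csf1r moved in opposite directions. Csf1, the growth factor of macrophages and microglia (ENSMUSG00000014599, GRCm38 chromosome 3, 107741048 to 107760469), was at 57.9, 60.2 and 87.2 CPM in Control replicates 1, 2 and 3 and at 138, 143 and 289 CPM in EAE replicates 1, 2 and 3. All EAE libraries were above all Control libraries, and EAE replicate 3 was the highest. Csf1 rose 2.77-fold (log2 1.47 ± 0.31 SE, edgeR adjusted p = 0.0238). Its call was lost without Control replicate 1 (adjusted p = 0.115) or Control replicate 2 (0.108), and without EAE replicate 3 the rise was 2.06-fold and stayed called.

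The other ligand, Il34, known in the healthy brain as a product of neurons (ENSMUSG00000031750, chromosome 8, 110741829 to 110805924), was at 20.7, 20.9 and 15.0 CPM in Control and 6.33, 5.92 and 3.25 CPM in EAE. Here the groups were separated the other way, with EAE replicate 3 the lowest. Il34 fell 3.65-fold (log2 -1.87 ± 0.32, adjusted p = 0.0108), a call lost without Control replicate 1 (adjusted p = 0.0570) or Control replicate 2 (0.0546). Opposite-strand models overlap 4.95% of its exonic bases.

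Set against each other in the same library, per kilobase, Csf1 stood at 1.04, 1.07 and 2.16 times the level of Il34 in Control and at 8.01, 8.85 and 32.3 times in EAE. The log2 ratio of their reads was 1.85 ± 0.60 in Control and 5.15 ± 1.12 in EAE, a difference of 3.30. Ratios of the groups did not overlap, and the 2-sided exact permutation p was 0.1, the smallest that 20 arrangements of 3 against 3 libraries allow. The pair was set side by side with the change of each gene already known, so the ratio describes it and adds no independent support.

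**Figure D3:**
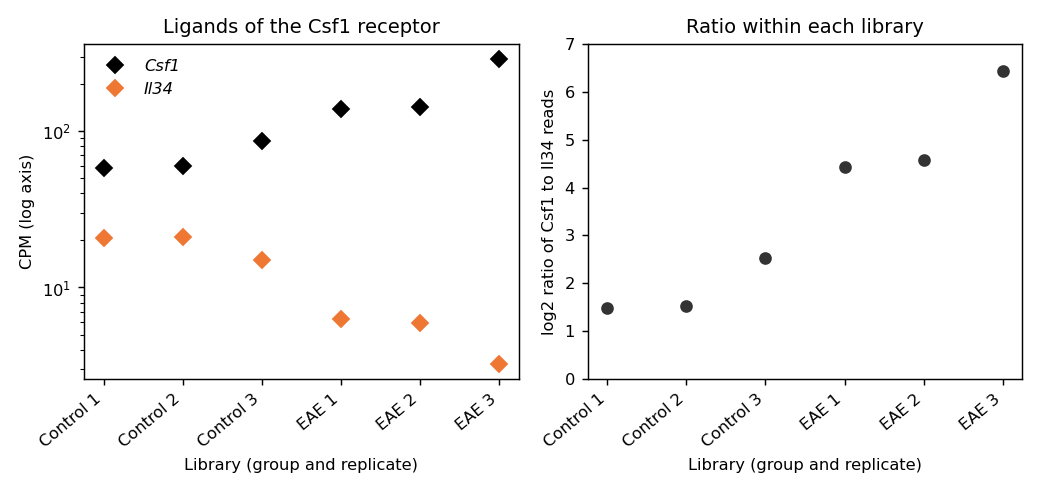
Csf1 and Il34 in each library, in CPM on a log axis, beside the log2 ratio of their reads. Points are single libraries. The log2 ratio averages 1.85 in Control and 5.15 in EAE, and the groups do not overlap.

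The receptor itself did not pass the test. Csf1r, which marks microglia and macrophages, was at 8.13, 9.12 and 9.34 CPM in Control and 9.57, 7.30 and 27.1 CPM in EAE. Only EAE replicate 3 lay well above Control (log2 0.73 ± 0.46, adjusted p = 0.452), and without that library the log2 value was -0.06. Reads shared with the opposite-strand gene Hmgxb3, which overlaps 15.1% of its exonic bases, leave the level uncertain. Csf2ra, the ligand-binding chain for the granulocyte-macrophage factor, was at 6.81 ± 2.87 CPM in Control and 8.85 ± 4.45 CPM in EAE (adjusted p = 0.711). Reads of Csf3r, the granulocyte factor receptor, numbered 54, 5 and 3 in Control and 10, 2 and 164 in EAE, and it was not tested.

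A promoter window was matched from RefSeq (GRCm38.p6, 250 bases before to 50 after a start) for 74 of the 94 genes, among them 4 of the 7 called. The window of Csf1 is shown because Csf1 is the more abundant of the genes called higher, and those of Il15ra because that gene had the largest fold among the genes called lower and the matches described next. Windows were searched on both strands for TTCNNNGAA, the palindrome bound by STAT dimers, and GAAANNGAA, a core of sites bound by interferon regulatory factors; capitals mark a match.
Csf1, chr3:107760420-107760719, minus strand: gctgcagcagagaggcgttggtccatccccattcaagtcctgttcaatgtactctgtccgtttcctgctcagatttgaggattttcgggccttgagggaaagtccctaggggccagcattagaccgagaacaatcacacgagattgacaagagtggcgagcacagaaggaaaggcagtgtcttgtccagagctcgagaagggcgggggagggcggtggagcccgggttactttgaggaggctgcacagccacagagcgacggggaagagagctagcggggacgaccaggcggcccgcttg
Il15ra, chr2:11705043-11705342, plus strand: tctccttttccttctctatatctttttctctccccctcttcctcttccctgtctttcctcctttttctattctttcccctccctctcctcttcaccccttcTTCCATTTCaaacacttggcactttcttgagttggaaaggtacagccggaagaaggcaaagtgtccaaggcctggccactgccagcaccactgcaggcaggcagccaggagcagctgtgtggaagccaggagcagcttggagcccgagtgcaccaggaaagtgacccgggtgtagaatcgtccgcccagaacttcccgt
Il15ra, chr2:11705462-11705761, plus strand: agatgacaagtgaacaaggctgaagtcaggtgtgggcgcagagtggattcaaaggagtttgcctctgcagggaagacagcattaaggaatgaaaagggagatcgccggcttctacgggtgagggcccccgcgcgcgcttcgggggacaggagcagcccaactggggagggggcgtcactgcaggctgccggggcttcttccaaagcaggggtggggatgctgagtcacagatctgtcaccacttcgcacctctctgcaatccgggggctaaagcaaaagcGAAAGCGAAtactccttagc
Neither motif was found in the windows of Csf1, Il17rd or Osmr, which says only that these letters are not there. Each Il15ra window held 1 match to GAAANNGAA, starting 149 bases before the annotated start in the first (on the opposite strand) and 30 bases past it in the second. Among all 32851 windows, TTCNNNGAA was in 8.30% and GAAANNGAA in 8.56%. Among the 95 windows of the genes described here, the shares were 11.6% and 7.37%.

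In the gp130 family 1 of 7 tested genes fell (4.33% of all tested genes were called lower), and the shared chain Il6st did not pass. Osmr, which pairs with gp130 to bind oncostatin M (ENSMUSG00000022146, chromosome 15, 6813577 to 6874969), was at 49.0, 48.0 and 28.8 CPM in Control and 13.3, 11.2 and 24.1 CPM in EAE. Groups did not overlap, but Control replicate 3 and EAE replicate 3 lay close to each other. Osmr fell 2.59-fold (log2 -1.37 ± 0.33, adjusted p = 0.0411). The call was lost on leaving out any 1 of Control replicates 1 and 2 and EAE replicates 1 and 2, with adjusted p up to 0.157, and also with library sizes alone in place of scaling factors (adjusted p = 0.0714).

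Il6st was at 237 ± 19.8 CPM in Control and 203 ± 37.7 CPM in EAE (log2 -0.22 ± 0.17, adjusted p = 0.538). Lifr was at 168 ± 14.4 and 149 ± 45.9 CPM (log2 -0.18 ± 0.22, adjusted p = 0.735), and Cntfr at 86.1 ± 14.2 and 97.8 ± 15.7 CPM (log2 0.18 ± 0.18, adjusted p = 0.652). In each of these 3 the group ranges overlapped. Il6ra, the chain that binds interleukin 6, was at 17.0, 10.9 and 11.3 CPM in Control and 4.16, 3.31 and 10.8 CPM in EAE. Its fold of 2.14 lower did not pass (log2 -1.10 ± 0.46, adjusted p = 0.227), with EAE replicate 3 close to Control; without that library it was 3.46-fold lower and passed (adjusted p = 0.0206).

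Ligands of these receptors had few reads. Lif had 11 reads in all 6 libraries, Il6 17 and Il11 20. Osm had 0 reads in each Control library and 8, 0 and 106 in EAE. Among the EAE libraries, Osmr was highest in the library where Osm had the most reads. That library was the highest of the EAE libraries for 23 of the 38 tested genes, and the share over all genes was not counted. A link between Osm and Osmr was not tested. Cntf was at 0.606 ± 0.332 CPM in Control and 0.519 ± 0.359 CPM in EAE, and 78.9% of its exonic bases lie in Zfp91 on the same strand. Il11ra1, at 3.74 ± 2.19 and 2.48 ± 0.643 CPM, has the near copy Il11ra2, so its level is uncertain (adjusted p = 0.651). Outside the 94 genes, 1 of 5 further gp130 ligands and soluble partners was tested, Ebi3, and it was not called.

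The interleukin 1 family had 21 genes, 15 with a read, 6 tested and none called by edgeR (7.14% of all tested genes were called). Il33 was at 981, 934 and 1070.4 CPM in Control and 802, 945 and 1028 CPM in EAE. Its groups overlapped (log2 -0.11 ± 0.16, adjusted p = 0.785), and it was not called with any library left out. Its specific receptor chain Il1rl1, also named ST2, had 91 reads in all, 90 of them in Control replicate 3. The shared accessory chain Il1rap was at 176 ± 19.4 CPM in Control and 238 ± 56.1 CPM in EAE (log2 0.43 ± 0.19, adjusted p = 0.249).

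Il1r1, the signalling receptor for interleukin 1, was at 15.7, 15.7 and 8.74 CPM in Control and 4.05, 7.86 and 22.3 CPM in EAE. Its EAE libraries lay on both sides of Control (adjusted p = 0.877). Il18bp, a secreted inhibitor of interleukin 18, was at 4.89, 5.63 and 6.89 CPM in Control and 7.51, 8.34 and 33.2 CPM in EAE. Groups did not overlap, but the 2.82-fold higher level (edgeR adjusted p = 0.168) was 1.37-fold without EAE replicate 3; DESeq2 called it at an adjusted p of 0.0433. Il18 was at 11.4 ± 1.01 and 11.5 ± 2.67 CPM (adjusted p = 0.989), and the synaptic relative Il1rapl1 at 7.90 ± 0.974 and 10.9 ± 3.49 CPM (adjusted p = 0.474). The signalling receptor chains of interleukin 18 were not tested: Il18r1 had 19 reads, all in EAE replicate 3, and Il18rap 3 in all. The decoy receptor Il1r2 had 69 reads, 55 of them in Control replicate 2.

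Among the 5 tested genes of the interleukin 17 family, 1 fell and kept its call throughout (4.33% of all tested genes were called lower). Il17rd, also named Sef, an inhibitor of fibroblast growth factor signalling (ENSMUSG00000040717, chromosome 14, 27038941 to 27107286), was at 21.3, 18.1 and 19.0 CPM in Control and 7.62, 6.96 and 5.11 CPM in EAE. The groups were narrow and well apart. Il17rd fell 2.97-fold (log2 -1.57 ± 0.25, adjusted p = 0.00831), and among the 7 called genes it alone stayed under 0.05 with each of the 6 libraries left out in turn (highest adjusted p = 0.0495).

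Il17ra, the common chain of the family, was at 20.9, 22.3 and 21.2 CPM in Control and 31.5, 23.7 and 49.0 CPM in EAE. Its groups did not overlap, though EAE replicate 2 lay only just above Control (log2 0.70 ± 0.27, adjusted p = 0.180). Il17rc, the partner of Il17ra for interleukin 17A, was at 3.37 ± 0.776 and 1.26 ± 0.492 CPM, 2.67-fold lower, which did not pass (log2 -1.41 ± 0.54, adjusted p = 0.174). Il17rb, the interleukin 25 receptor, was at 7.30 ± 0.675 and 5.90 ± 0.931 CPM (adjusted p = 0.650), and the ligand Il17d at 3.39 ± 0.438 and 4.57 ± 0.528 CPM (adjusted p = 0.588).

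Of the ligands and receptors of the common gamma chain family and of interleukins 4 and 13, 8 genes were tested and 1 fell. By comparison, 4.33% of all tested genes were called lower. Il15ra, which presents interleukin 15 to neighbouring cells (ENSMUSG00000023206, chromosome 2, 11705290 to 11734317), was at 10.3, 5.83 and 16.6 CPM in Control and 2.32, 1.45 and 2.85 CPM in EAE. Control values were widely spread, and every EAE value lay below them. Il15ra fell 4.92-fold (log2 -2.30 ± 0.47, adjusted p = 0.0211); leaving out any 1 of Control replicates 1 and 3 and EAE replicates 1 and 2 ended the call (adjusted p up to 0.0826) as did limma-voom (0.0512). Its ligand Il15 was at 0.741 ± 0.447 and 0.407 ± 0.353 CPM (adjusted p = 0.766).

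Il13ra1, a receptor chain that joins Il4ra, was at 24.7, 11.7 and 7.40 CPM in Control and 5.41, 2.64 and 5.94 CPM in EAE. Groups did not overlap, and the 3.12-fold lower level did not pass in edgeR (log2 -1.64 ± 0.50, adjusted p = 0.0901) but did in DESeq2 (adjusted p = 0.0106). Without Control replicate 1, the highest library, it was 2.04-fold lower (edgeR adjusted p = 0.301). Il4ra was at 5.05, 3.58 and 1.99 CPM in Control and 1.66, 1.30 and 9.82 CPM in EAE, and the common gamma chain Il2rg at 5.13, 3.42 and 3.00 CPM and 1.66, 2.98 and 21.2 CPM. For both, EAE replicate 3 was the highest library and the other EAE libraries lay below every Control library (adjusted p = 0.897 and 0.509). Other genes share 9.51% of the exonic bases of Il4ra and 30.5% of those of Il2rg. Il4 was at 3.56 ± 0.829 and 4.75 ± 1.65 CPM (adjusted p = 0.669), and Il2ra at 6.05 ± 5.04 and 3.62 ± 2.20 CPM (adjusted p = 0.635). Il13 and Il7 had 2 and 11 reads in all. The other tested genes were low and not called: Il2, Il20rb and Il16 averaged under 1 CPM in each group, and Il4i1, with 86.3% of its exonic bases in other genes, was at 5.47 ± 1.95 and 3.74 ± 0.843 CPM.

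In the interleukin 10 family 1 of 3 tested genes fell, and in the interleukin 12 family 1 of 3 rose. For all tested genes, the shares were 4.33% lower and 2.82% higher. Il10rb, a chain shared by receptors of interleukin 10, interleukin 22 and type III interferons (ENSMUSG00000022969, chromosome 16, 91406164 to 91425834), was at 18.9, 11.8 and 16.3 CPM in Control and 4.97, 5.21 and 6.23 CPM in EAE. All EAE values lay together below Control. Il10rb fell 2.86-fold (log2 -1.52 ± 0.28, adjusted p = 0.0151), a call lost without Control replicate 1 (adjusted p = 0.0771) or EAE replicate 1 (0.0766). A model on the same strand, Gm21970, shares 14.9% of its exonic bases. Its partner Il10ra had 10, 0 and 0 reads in Control and 11, 0 and 132 in EAE, and Il10 had 9 in all.

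Il12rb1, the chain shared by the receptors of interleukins 12 and 23 (ENSMUSG00000000791, chromosome 8, 70808449 to 70821424), was at 6.45, 4.50 and 3.236 CPM in Control and 18.9, 15.9 and 32.9 CPM in EAE. All 3 EAE libraries lay well above Control, EAE replicate 2 included. Il12rb1 rose 4.77-fold (log2 2.25 ± 0.38, adjusted p = 0.00948) and 3.71-fold without EAE replicate 3; without Control replicate 2 the call was just lost (adjusted p = 0.0512). Its partner Il12rb2 was at 5.16 ± 0.436 and 2.80 ± 1.10 CPM (log2 -0.88 ± 0.41, adjusted p = 0.282), with 40% of its exonic bases in the opposite-strand gene Serbp1. Il12a was at 1.16 ± 0.487 and 1.69 ± 0.563 CPM, and Il23r had 5 reads in all.

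**Figure D4:**
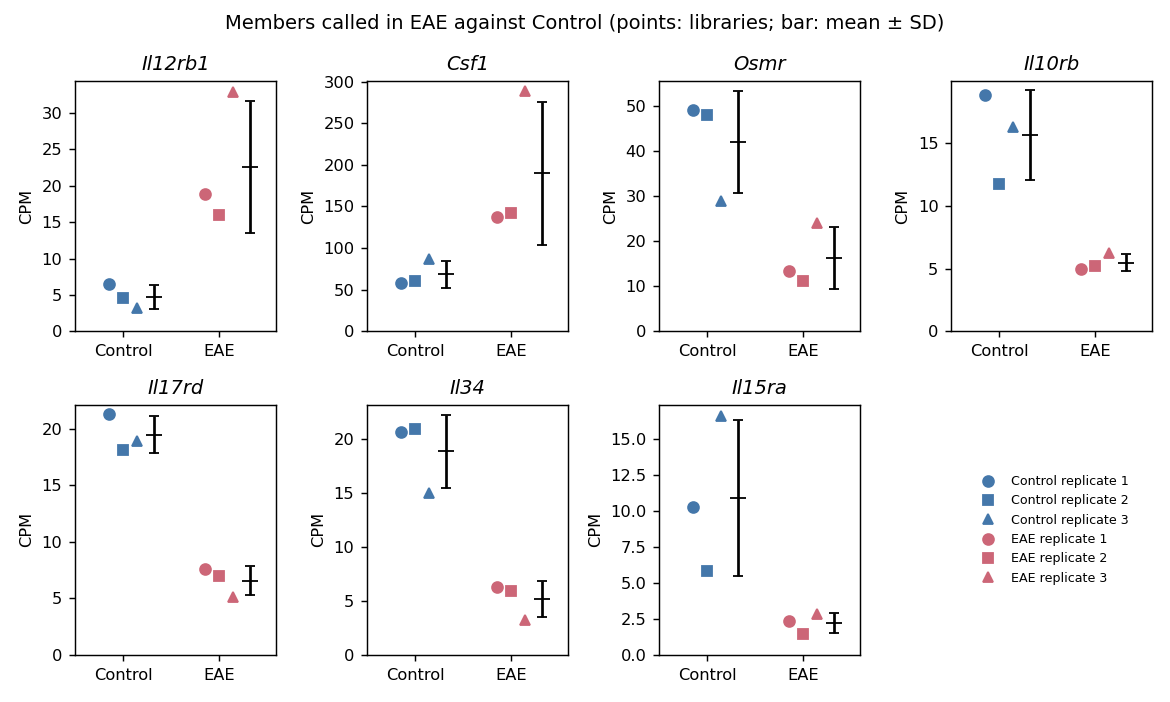
The 7 called genes, 1 panel each, in CPM per library on linear axes that start at 0. Points are single libraries and bars the mean ± SD of 3 libraries per group. Csf1 and Il12rb1 are higher in every EAE library and the other 5 lower.

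Where the 5 lower genes are considered, the summed pericyte and endothelial markers given above moved the same way and further: all 20 of their genes were called lower, with medians of -2.69 and -2.44 on the log2 scale, against -1.37 to -2.30 for Il34, Osmr, Il10rb, Il15ra and Il17rd. Of 6 tested fibroblast genes, 2 were called lower, with a median of -1.69. That list, which shares Pdgfra with the precursor list, summed to 245 to 385 CPM in Control and 311 to 384 CPM in EAE. The part of vessel cells or fibroblasts in the decreases was not tested. Genes of oligodendrocyte precursors had 3 higher and 0 lower of 9 tested. Genes of neurons, the source named above for Il34, summed to 20.4 to 31.2 CPM in Control and 50.4 to 108 CPM in EAE. Of 5 tested, 1 was called higher and 1 lower.

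A separate set of genes had nearly all its reads in a single library. Of the 60 genes with at least 20 reads in all, 12 (20%) had 80% or more of them in EAE replicate 3, as did 1.54% of all 20018 genes with that many reads. Only 1 of the 12, Il10ra, had enough reads in the other libraries to be tested, and 9 had no read in any Control library. Il1rn, the interleukin 1 receptor antagonist, had 0 reads in each Control library and 12, 0 and 1155 in EAE. Il1b, the main secreted interleukin 1, had 0 in each Control library and 35, 5 and 649 in EAE. Csf2rb, the signalling chain for the granulocyte-macrophage factor, interleukin 3 and interleukin 5, had 0, 4 and 0 and then 65, 1 and 1014, and its near copy Csf2rb2 followed with 0, 1 and 0 and then 20, 2 and 1076. EAE replicate 1 was intermediate in these 3 genes and EAE replicate 2 at or near 0.

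Fewer reads came from receptors of lymphocytes, from cytokines of T cells and from the interleukin 1 family ligands Il1f9 and Il1a. EAE replicate 3 had the most reads of each. Il2rb, which transduces interleukin 2 and 15 signals, had 5, 2 and 266 reads in EAE, Il7r 11, 0 and 106, Il21r 3, 0 and 40, and the T cell cytokine Il21 10, 0 and 56; all 4 had 0 in every Control library. Il17a, the signature cytokine of Th17 cells, had 33 reads and Il1f9 63, all in EAE replicate 3. Il1a had 2, 3 and 6 reads in Control and 25, 6 and 172 in EAE, with 11.2% of its exonic bases in another gene. Not every rare gene followed this library: Il31ra had 9, 24 and 19 reads in EAE and Il23a 1, 15 and 8, with 0 in Control.

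**Figure D5:**
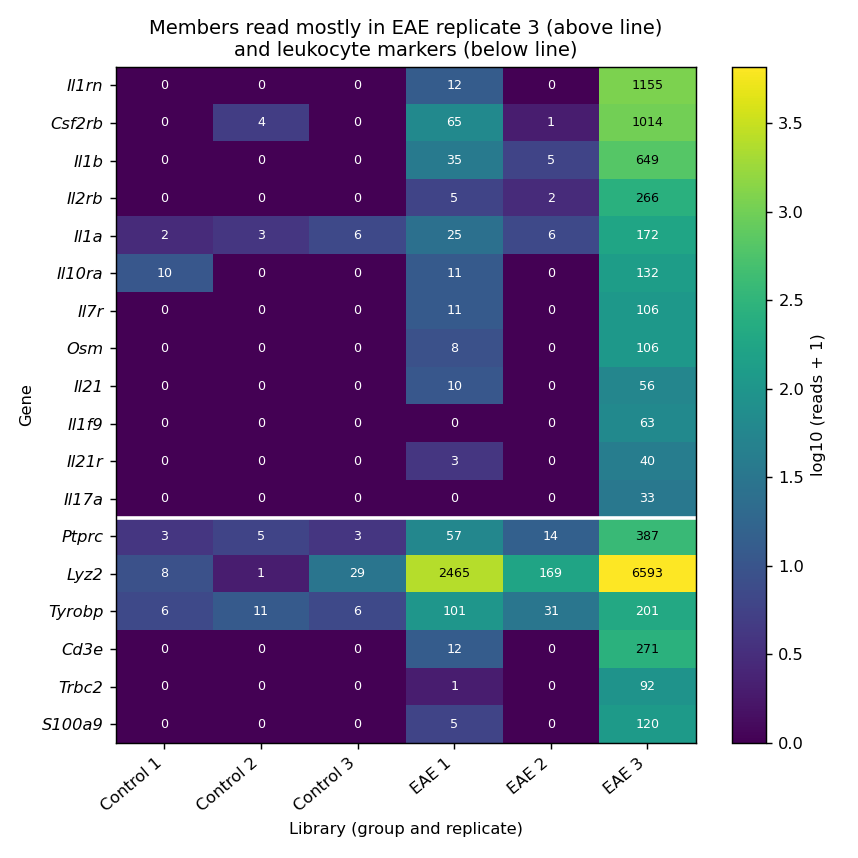
Reads per library of the 12 genes with 80% or more of their reads in EAE replicate 3, above 6 leukocyte genes that were picked for display after their values were seen. Colour gives reads on a log scale and the printed numbers are reads. EAE replicate 3 is highest in each row shown, for example 1155 reads of Il1rn and 271 of Cd3e.

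Markers of leukocytes had their highest level in the same library. The list for microglia and monocytes, leaving out Csf1r, summed to 16.8 to 22.5 CPM in Control and to 152, 31.0 and 389 CPM in EAE replicates 1, 2 and 3, and 4 of its 10 tested genes were called higher. The T cell list, leaving out Il2ra, summed to 0.442 to 1.11 CPM in Control and 2.21, 0.558 and 18.4 CPM in EAE. Of its 10 genes, Cd3d, Cd3e, Cd3g, Cd4, Trbc1 and Trbc2 were at 0 in every Control library. Cd8a went the other way, with reads in Control and 0 in every EAE library. In EAE replicate 2, 7 of the 10 were at 0. Genes of B cells and neutrophils summed to at most 0.442 CPM in Control and to 0.552, 0.484 and 5.64 CPM in EAE. Malat1, a nuclear RNA, took 0.935% of reads in EAE replicate 3, the lowest share of the 6 libraries. What part these cells or this library's RNA had in the reads of the 12 genes was not tested. Without EAE replicate 2, Il1b and Csf2rb entered the test and were called higher (edgeR adjusted p = 0.0282 and 0.0155). Neither passed the filter with all 6 libraries. Their entry rested on the remaining EAE libraries, where they were high, with Control at or near 0, so these calls add no support.

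Genes that act downstream of these receptors were described from the same fit. Stat3, the main factor of gp130, was at 104, 102 and 102 CPM in Control and 159, 156 and 236 CPM in EAE and rose 1.78-fold (adjusted p = 0.0288), but lost its call without any 1 Control library or EAE replicate 1 (up to 0.114). Stat6, the factor of interleukins 4 and 13, was at 18.2, 20.7 and 12.8 CPM and 4.82, 2.75 and 5.77 CPM and fell 3.86-fold (adjusted p = 0.0129), a call that ended on leaving out any 1 of Control replicates 1 and 2 and EAE replicate 1 (up to 0.0643).

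None of 13 tested SOCS and other brakes was called (median 0.01), where 7.14% of all tested genes were called. Socs3, the feedback inhibitor of gp130, was at 3.78, 14.8 and 2.73 CPM in Control and 6.88, 3.91 and 38.2 CPM in EAE, with overlapping groups (adjusted p = 0.526). None of 12 genes of the interleukin 1 relay, such as Myd88, was called either (median 0.01). Of 11 genes of NF-kappaB and its brakes, Bcl3 alone was called: it was at 2.34, 2.93 and 2.03 CPM in Control and 9.24, 13.1 and 53.4 CPM in EAE, rose 10.3-fold (adjusted p = 0.0171), rose 4.61-fold without EAE replicate 3, and lost its call without any 1 Control library (up to 0.0908) and in limma-voom (0.125).

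Of 10 genes known as Stat3 targets, Bcl3, Gfap and Serpina3n were higher and Osmr, described above, lower (median 1.81). Bcl3 and Osmr were already counted above. Over all tested genes, 7.14% were called, and whether this list differs from that share was not tested. Gfap, the intermediate filament of astrocytes, rose 8.81-fold (edgeR adjusted p = 0.00876), and 5.16-fold without EAE replicate 3. Its call was lost without Control replicate 2 (0.0512). Gfap was the 1 gene called of 7 tested astrocyte markers. That list summed to 192 to 356 CPM in Control and 204 to 302 CPM in EAE. Serpina3n, a secreted protease inhibitor, was at 9.40, 11.5 and 4.85 CPM in Control and 686, 241 and 4187 CPM in EAE and rose 198-fold (adjusted p = 0.00755). That fold was 54.5 without EAE replicate 3, and the call was lost without Control replicate 1 or 3 (up to 0.0585) and with no filter on low counts (0.0999).

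Among ligands and receptors of the same structural classes that the naming rule left out, 6 of 12 were tested and 3 fell. Of all tested genes, 4.33% were called lower, and whether this list differs from that share was not tested. Kitl, the ligand of the Csf1r relative Kit, was at 54.0, 50.4 and 40.9 CPM in Control and 12.03, 9.87 and 8.16 CPM in EAE and fell 4.83-fold (log2 -2.27 ± 0.22, adjusted p = 0.00123), with the call kept in all 6 fits that leave out a library. Ghr, the growth hormone receptor, fell 2.99-fold (adjusted p = 0.0280) and Lepr, the leptin receptor, 4.21-fold (adjusted p = 0.0411). Both lost their calls on leaving out any library other than EAE replicate 3 (up to 0.108 and 0.155), Lepr also with library sizes alone (0.0620), and Lepr was 6.65-fold lower without that library.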

How the data were processed

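The authors deposited raw counts of reads per Ensembl gene, 1 column per library, with the feature length of each gene in bases, per the file headers. Per the submitters' processing notes, the tools were FastQC, STAR, featureCounts and edgeR 3.24.3, with build mm10. Strand and multi-mapping settings are not given in the sources, so reads of near copies and overlapping genes (at least 5% of exonic bases) are uncertain. Such overlaps are named above, except 17.4% for Il16, 8.92% for Il21, 6.5% for Bcl3, 23.4% for Ebi3 and 11.3% for Myd88. Symbols and coordinates came from GENCODE for GRCm38 and matched 36345 identifiers (94.9%).

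Genes were kept by filterByExpr (minimum count 10, minimum total 15), TMM-scaled and tested with the 2-sided quasi-likelihood F test of edgeR 4.0.16 in R 4.3.3, EAE against Control, with Benjamini-Hochberg adjustment over 16966 genes. Each SE is the log2 fold change divided by the root of F. CPM was computed here from the counts and scaled library sizes. The biological coefficient of variation was 39.6%. Alternatives were DESeq2 1.42.0, limma-voom (limma 3.58.1), upper-quartile factors, library sizes alone, no filter, a replicate block and leaving out each library. Named are all called genes, tested genes with a mean of at least 5 CPM, fixed ligand and receptor partners and called genes of the pathway lists; further genes were chosen after their values were seen. The genes and lists were chosen with earlier results of these data known. A called gene of these lists is not reported here.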

Additional observations from a re-analysis of the deposited data

How the results depend on the processing

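The count of genes called higher in EAE was 2 with upper-quartile factors, library sizes alone, no filter, limma-voom and the replicate block, and 3 with DESeq2. The count called lower was 5, 4, 5, 4 and 4 under those first settings and 6 with DESeq2. Leaving out 1 library gave 0 to 4 genes higher (0 without Control replicate 2, 4 without EAE replicate 2). Those 4 include Il1b and Csf2rb, which were not tested with all 6 libraries. The same fits gave 1 to 6 genes lower (1 without Control replicate 1, 6 without EAE replicate 3), and a group then has fewer libraries. Over all genes, 478 higher and 734 lower were called by edgeR, 958 higher and 1204 lower by DESeq2, and 119 higher and 321 lower without Control replicate 1. Same-numbered Control and EAE libraries did not deviate together (r = 0.016, -0.040 and -0.034). With 3 libraries per group this cannot exclude that the numbers pair them, and the labels do not say. In the replicate block Osmr lost its call (adjusted p = 0.118). So did Bcl3 (0.0547), Ghr (0.0591), Lepr (0.0845), Stat3 (0.0671) and Stat6 (0.0520) outside the 94 genes. Some genes that were never called changed sign. Il18 was -0.023 in limma-voom and -0.013 in the replicate block, and Il4ra -0.22 and -0.38. Leaving out 1 library, log2 fold changes ran from -0.92 to 0.12 for Cntf, -0.061 to 1.05 for Csf1r, -0.10 to 0.78 for Csf2ra, -0.088 to 0.20 for Il18, -1.16 to 0.20 for Il1r1, -0.72 to 1.68 for Il2rg, -0.18 to 0.0065 for Il33, -1.24 to 0.70 for Il4ra and -0.42 to 0.039 for Lifr. The ratio of Csf1 to Il34 kept its direction in every setting tried. Of the 38 untested genes with reads, 16 had fewer than 20 in all, which limits them by depth; others, such as Il1rn, had most reads in 1 library.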
